A study of Mus musculus with 6 samples.

Results

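The genes described here are 36 mouse genes of intraflagellar transport and the cilium, taken by symbol from the 24015 genes listed in the count files. They comprise 12 genes of the IFT-B particle, 5 of the IFT-A particle with its adaptor Tulp3, 6 of the BBSome, 3 that assemble or recruit the BBSome, 3 kinesin motor genes, 4 dynein-2 genes and 2 ARL GTPase genes. All 36 symbols were found and all 36 passed the filter on low counts. The genes were grouped by function, but the group was proposed with the results of the same comparison known. The fold changes and calls below are therefore a description of these genes, and no test of the group as a whole was made.

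The study asked what stabilised NIK (gene Map3k14), the kinase that starts noncanonical NF-kB signalling, does in mouse acute myeloid leukaemia. The leukaemia was made with the MLL-AF9 fusion in lineage-negative, Kit-positive bone marrow progenitors of NIKERT2 mice. These mice carry, at the Rosa locus, a NIK transgene behind a loxP-flanked stop and, also at Rosa, the tamoxifen-dependent recombinase CreERT2. The LSPCT group holds 3 libraries of leukaemia stem cells that were sorted from leukaemic mice given tamoxifen, and the LSPC group holds 3 libraries of the same cells from untreated leukaemic mice. Both groups share the fusion, the transgene as built and CreERT2. In the LSPCT group, tamoxifen is meant to let CreERT2 remove the stop and so switch on the NIK transgene. Effects of tamoxifen, of Cre and of NIK cannot be told apart in this design. The sources used here give no dose, time, sort gates or age. Nor do the labels say that each replicate is its own mouse; the p-values rest on library-to-library spread, which may be technical.

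Cilia are built and maintained by trains of protein particles that move along the microtubules of the axoneme. IFT-B trains travel to the tip on kinesin-2 motors, IFT-A trains are needed for the return on dynein-2, and the BBSome rides on the trains and carries membrane proteins out of the cilium. ARL3 releases lipid-anchored cargo inside the cilium, and ARL6 brings the BBSome to membranes. Most blood cells are regarded as lacking primary cilia, yet parts of the machinery are used outside cilia, as IFT20 is at the T cell immune synapse. The proteins were not measured, and neither was the presence of cilia.

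Promoters of these genes often hold the X-box, the palindromic site of RFX transcription factors, so the promoter windows of RefSeq (GRCm38.p6, 250 bases before to 50 after each start) were searched on both strands. Windows were found for 32 of the 36 genes; Ift80, Ift81, Ift122 and Dync2li1 were not matched. The X-box, written as GTTNCCNNGGNAAC, was present in 1 of the 32 genes, against 0.529% of all genes with a window. The shorter core GTTGCCA, which can overlap the X-box, was present in 6 of the 32 (18.8%), against 5.03% of all genes. Forms of the X-box with a gap of 1 or 3 bases were added after the sequences had been seen, and the gap of 1 base was found in Ift57 (0.311% of all genes with a window). The windows that hold these matches before the start are shown, with the match in capitals, because sequence did not enter the choice of the genes.
Bbs7, X-box, chr3:36613477-36613530, minus strand: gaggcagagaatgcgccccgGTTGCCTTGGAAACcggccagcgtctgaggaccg
Ift57, X-box with a gap of 1 base, chr16:49699214-49699266, plus strand: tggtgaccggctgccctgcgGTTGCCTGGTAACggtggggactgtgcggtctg
Traf3ip1, shorter core, chr1:91494569-91494615, plus strand: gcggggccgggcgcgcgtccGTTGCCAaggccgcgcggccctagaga
Ift27, shorter core, chr15:78174082-78174110, minus strand: gagaaggcgggttgatgatgGTTGCCAgg
The shorter core was also present at or after the start in Bbs1, Dync2h1, Ift88 and Wdr35. Of these 8 genes with a match, Ift57 alone passed the test between the groups. Ift80, Ift122 and Dync2li1, which rose, had no window and could not be searched. A kappaB consensus, the binding motif of NF-kB dimers, was searched as well after the counts had been seen. It was present in 9.55% of all genes with a window and in 0 of the 32. Over the tested genes with a window, the share was 12.2% for kappaB and 4.45% for the shorter core. It was 0.613% for the X-box and 0.208% for the form with a gap of 1 base. These matches and misses describe letters in a window and say nothing of binding.

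Total counts were 19999071 to 22454753 in LSPCT and 20410001 to 26773176 in LSPC libraries. A gene without reads could still lie at 3 counts, or 0.112 to 0.150 CPM (counts scaled to library size), counting error only. CPM values are scaled by TMM, which corrects for composition. Map3k14 stood at 130, 191 and 160 CPM in LSPCT replicates 1 to 3, against 26.5, 24.2 and 28.8 CPM in LSPC, and so followed the labels. LSPCT replicate 1 stood apart from the other libraries on the second principal component (17.2% of the variance). Its summed level of 9 macrophage markers was 525 CPM, against 181 and 222 CPM in LSPCT replicates 2 and 3 and 70.7 to 103 CPM in LSPC. Of the 8 macrophage markers tested 7 rose, against 8.96% of all genes tested, and no marker was at 0 in every library. Of the 7, Emr1 alone had 3 LSPC libraries over the low-count filter, which asks for 3 libraries. C1qa, C1qb, C1qc and Cd5l had 2 LSPC libraries over it, Mrc1 had 1 and Fcgr1 had 0. These markers were tested only with the help of LSPCT libraries, so that a difference was partly built into their testing. Of 7 stromal and endothelial markers tested, 3 rose, Col1a1, Col1a2 and Pdgfra. Pdgfra, like the macrophage marker Fcgr1, passed the low-count filter through LSPCT libraries alone. The median log2 fold change of these 7 was 1.75, with 6 above 0. The list summed to 62.0 to 90.7 CPM in LSPCT and 45.0 to 70.2 CPM in LSPC. Of this, Pdgfrb alone gave 42.7 to 50.6 and 34.3 to 55.4 CPM. Col3a1 did not pass, at 1.30 to 6.99 CPM in LSPCT and 0.817 to 1.29 CPM in LSPC. Dcn, Lum, Cdh5, Kdr and Emcn were too low to be tested. Dcn and Lum were at most 0.620 and 0.150 CPM in LSPCT, and 0.0848 and 0.0743 CPM in LSPC. Cdh5 and Kdr were at most 1.05 and 0.464 CPM in LSPCT, and 0.0371 and 0.149 CPM in LSPC. Emcn was at 0 in LSPCT and at most 0.127 CPM in LSPC. Fibroblasts and endothelial cells commonly carry primary cilia, so these values bear on every gene below, and their part in the results was not tested. The progenitor markers Kit (126 to 194 CPM in LSPCT, 117 to 137 CPM in LSPC) and Cd34 (199 to 264 and 150 to 200 CPM) were present in every library, while 5 of 12 progenitor markers fell (Mpo, Elane, Prtn3, Cebpa and Fcgr3) and none rose. Of 6 lymphocyte markers tested Nkg7 fell and none rose. Their median log2 fold change was 0.47, with 4 of the 6 above 0. Cd3e was at 2.74 to 6.05 CPM in LSPCT, against 1.34 to 2.03 CPM in LSPC, and did not pass (log2 1.23, edgeR adjusted p = 0.0569). Pax5 was at 0 in every library, and so were the globin genes Hbb-b1, Hba-a1 and Hba-a2 of the erythroid list. In sorted bulk samples, fewer cells with a transcript and less transcript per cell cannot be told apart.

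Of the 36 genes, 7 rose with tamoxifen, namely Ift80, Ift140, Bbs2, Dync2li1, Ift52, Ift57 and Ift122, and Kif17 alone fell (edgeR quasi-likelihood test, adjusted p under 0.05 over 12729 genes tested, two-sided). The remaining 28 did not pass. Calls thus made up 22.2% of the group, against 17.2% of all genes tested; those that rose made up 7 of 36, against 8.96% of all genes tested, and those that fell 1 of 36, against 8.24%. The median log2 fold change was 0.22 over the 36 genes and -0.0025 over all genes tested, and 29 of the 36 values (80.6%) were above 0, against 49.6% of all genes tested. The groups did not overlap for 14 of the 36, 13 of them higher in LSPCT, against 37.7% of all genes tested without overlap, 18.1% without overlap and higher, and 19.6% without overlap and lower. By library, the median difference from the LSPC mean was 0.30, 0.28 and 0.21 in LSPCT replicates 1 to 3 (log2 of CPM plus 0.5), so it did not rest on LSPCT replicate 1.

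**Figure D1:**
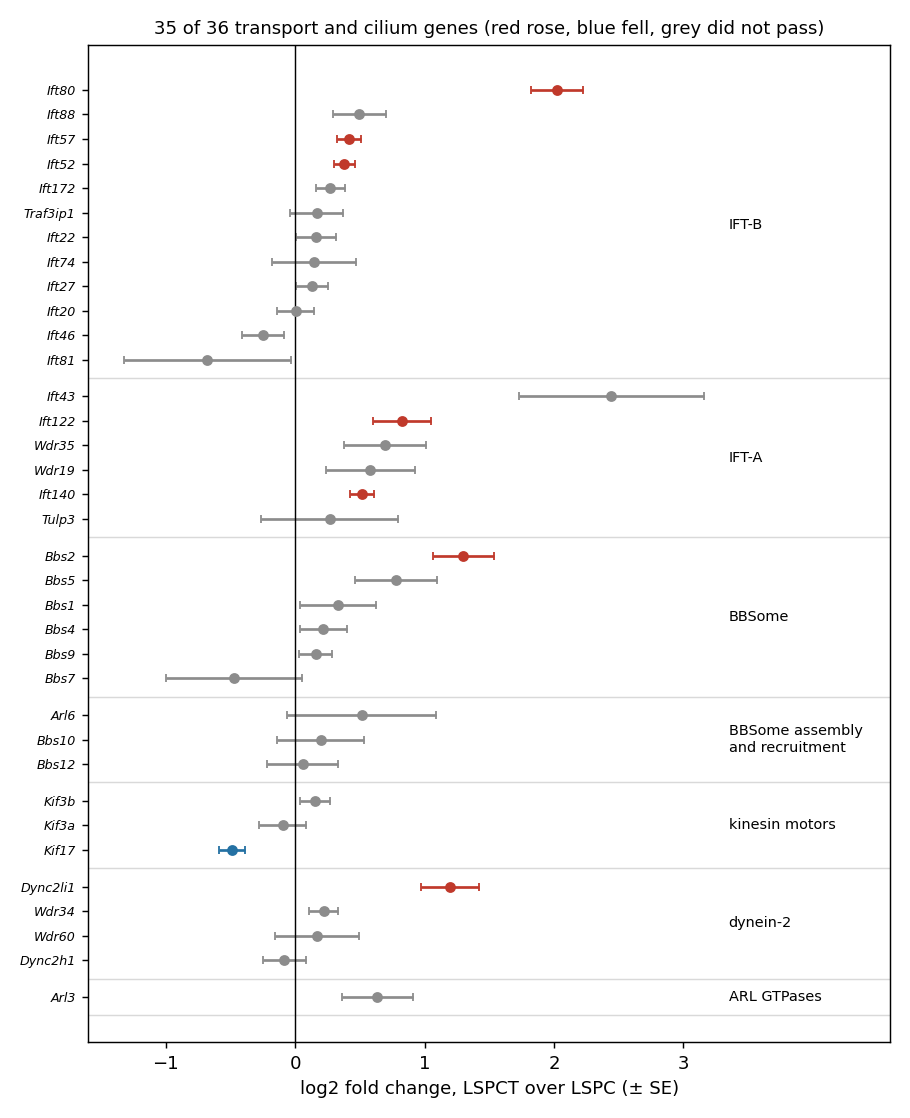
Fitted log2 fold change, LSPCT over LSPC, of 35 of the 36 genes (points, with the standard error as bars), sorted within each complex. Ift80 sits at 2.02 with a short bar, Ift43 at 2.44 with a long bar and no call, Kif17 is the gene that fell at -0.49, and most of the others lie between 0 and 0.8.

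Within IFT-B, the particle of outward transport, the change was uneven: 3 of 12 genes rose, none fell, and the particle's median log2 fold change was 0.16. For this and the complexes below, the shares over all genes tested were 8.96% that rose and 8.24% that fell. Ift80, whose product is a peripheral IFT-B subunit and is mutated in human skeletal ciliopathies, stood at 76.8, 126 and 135 CPM in LSPCT replicates 1 to 3, against 28.2, 26.6 and 28.3 CPM in LSPC. Every LSPCT library was well above any LSPC library, and the LSPC libraries lay close together while LSPCT replicate 1 was the lowest of its group. The mean of 113 ± 31.2 CPM in LSPCT was 4.07 times the 27.7 ± 0.951 CPM of LSPC (SD, n = 3 each; log2 2.02, SE 0.20, edgeR adjusted p = 0.000473). Without LSPCT replicate 1 the log2 fold change was 2.24 (edgeR adjusted p = 1.74e-06). Ift80 was also the only one of the 36 that passed when a change of more than 1.5-fold was required (edgeR glmTreat adjusted p = 0.00145).

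The gene lies next to Smc4, a condensin subunit gene, in the RefSeq order of genes. Smc4 stood at 595, 670 and 724 CPM in LSPCT, against 389, 476 and 413 CPM in LSPC, and rose (log2 0.64, SE 0.11, edgeR adjusted p = 0.00597). Trim59, another nearby gene, differed by 0.29 (SE 0.10, edgeR adjusted p = 0.0895). GENCODE vM21 places processed pseudogenes within the introns of Ift80, none of which shares exon bases with it. The difference at Ift80 was thus larger than at either of these neighbours, although the difference between the genes was not tested.

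Ift52 and Ift57 rose by smaller amounts. Ift52, a subunit of the IFT-B core, was at 72.9, 74.4 and 79.4 CPM in LSPCT, against 59.7, 55.8 and 59.0 CPM in LSPC (log2 0.38, SE 0.08, edgeR adjusted p = 0.0174). Ift57, a peripheral subunit, was at 64.4, 57.5 and 54.3 CPM in LSPCT, against 45.6, 41.5 and 44.9 CPM in LSPC (log2 0.42, SE 0.09, edgeR adjusted p = 0.0196). Neither gene overlapped between groups. Both calls were lost when any LSPC library was left out, with edgeR adjusted p of 0.0532 to 0.0819 for Ift52 and 0.0572 to 0.0907 for Ift57. Gm15518, on the other strand in GENCODE vM21, shares 225 exon bases with Ift57, and whether reads were counted by strand is not known here.

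The other 9 IFT-B genes did not pass. Ift88, a core subunit whose loss abolishes cilia in mice, had 13.7, 12.3 and 14.6 CPM in LSPCT, against 9.40, 11.9 and 7.54 CPM in LSPC, and the groups did not overlap (log2 0.50, SE 0.20, edgeR adjusted p = 0.132). Ift172, the largest subunit, had 27.6, 34.2 and 28.8 CPM in LSPCT, against 24.5, 25.9 and 24.5 CPM in LSPC, again without overlap (log2 0.27, SE 0.11, edgeR adjusted p = 0.142). Ift20, the subunit that also works at the Golgi, averaged 32.2 ± 4.87 CPM in LSPCT and 32.1 ± 3.89 CPM in LSPC (SD, n = 3 each), a difference smaller than the spread in either group. Traf3ip1, named for its binding to TRAF3, the adaptor that directs NIK to degradation, was at 8.65, 13.3 and 13.6 CPM in LSPCT, against 10.7, 10.4 and 10.5 CPM in LSPC. LSPCT replicate 1 was the lowest of all 6 and the other LSPCT libraries the highest (log2 0.17, SE 0.20, edgeR adjusted p = 0.628). The Rab-like GTPase genes Ift22 and Ift27 gave log2 values of 0.16 and 0.13, and Ift46 and Ift74 gave -0.25 and 0.15. Ift81, which forms the tubulin-binding module with Ift74, was near the filter at 0.133 to 0.950 CPM in LSPCT and 0.631 to 1.31 CPM in LSPC, with a log2 value of -0.68 and an SE of 0.65.

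In IFT-A, the particle of the return journey, all 6 log2 values counting Tulp3 were above 0, with a median of 0.64, and 2 genes rose. Of all genes tested, 49.6% were above 0 and 8.96% rose. Ift140, a core subunit, was at 73.1, 84.1 and 84.0 CPM in LSPCT, against 55.1, 59.0 and 54.3 CPM in LSPC. The groups were well apart, and the log2 fold change was 0.52 (SE 0.09, edgeR adjusted p = 0.00778). Ift122, another core subunit, was at 12.6, 8.87 and 8.85 CPM in LSPCT, against 5.62, 6.53 and 5.01 CPM in LSPC. LSPCT replicate 1, the library with the most macrophage transcripts, was the highest, as it was for Bbs2 and Ift57. The log2 fold change of Ift122 was 0.82 (SE 0.22, edgeR adjusted p = 0.0394). That call was lost whichever library was left out (edgeR adjusted p 0.0508 to 0.135).

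Ift43, a small peripheral IFT-A subunit, had the largest fitted value of the group but few reads. It had 32, 21 and 13 counts in LSPCT, against 4, 8 and 1 in LSPC, or 1.6, 0.975 and 0.575 CPM against 0.199, 0.339 and 0.0371 CPM. Its log2 value of 2.44 had an SE of 0.72 and just missed the threshold (edgeR adjusted p = 0.0518). The gene passed the filter on low counts only through the LSPCT libraries, so that a difference was built into its being tested. It passed with DESeq2 (adjusted p = 0.0379). Wdr35 (log2 0.69, SE 0.32), Wdr19 (0.58, SE 0.35) and Tulp3, which links IFT-A to membrane receptors (0.27, SE 0.53), did not pass. Wdr35 did not overlap between groups, at 2.25, 2.69 and 1.77 CPM in LSPCT and 1.49, 1.36 and 1.30 CPM in LSPC. In Wdr19 the difference lay mostly in LSPCT replicate 2, at 6.64 CPM, with 2.95 and 3.50 CPM in the other LSPCT libraries and 2.86 to 3.01 CPM in LSPC.

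**Figure D2:**
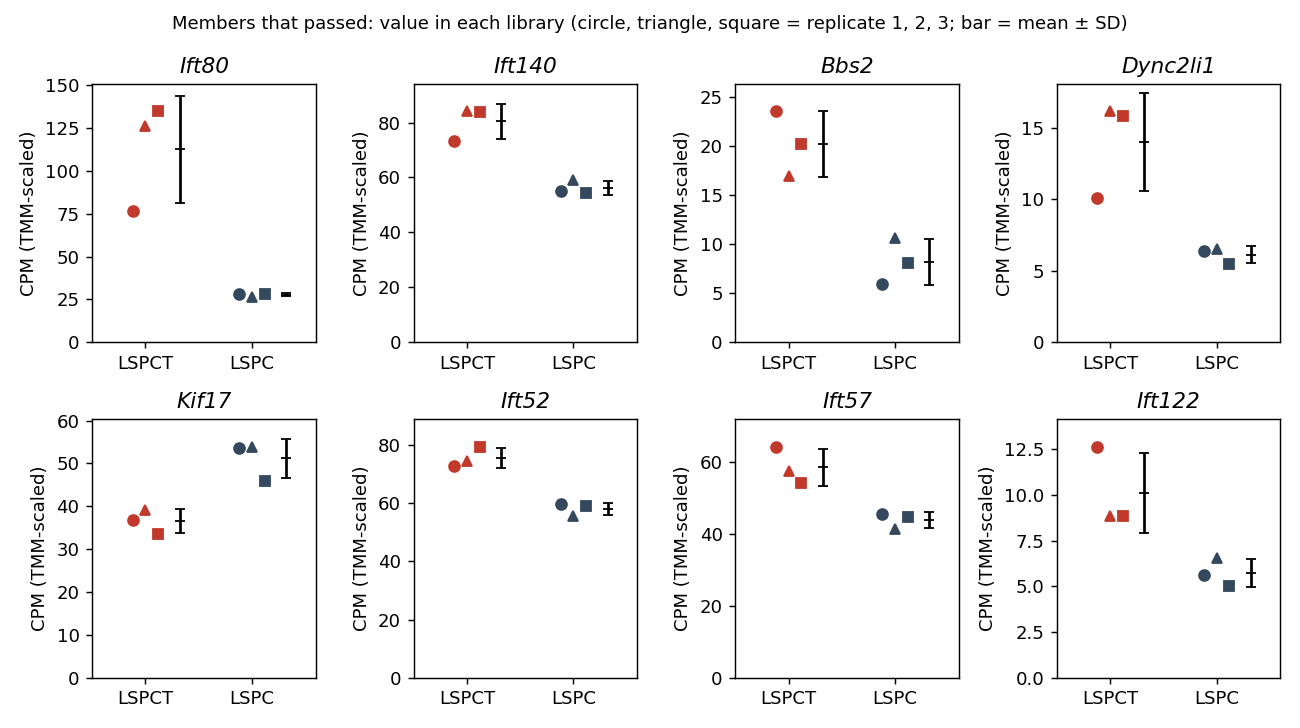
CPM (TMM-scaled) of the 8 genes that passed, with LSPCT on the left and LSPC on the right of each panel, 1 point per library and the mean ± SD beside them. No panel has overlapping groups; LSPCT replicate 1 (circle) is the lowest of its group for Ift80, Dync2li1, Ift140 and Ift52 and the highest for Bbs2, Ift57 and Ift122.

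Of the 6 BBSome genes among the 36, Bbs2 alone rose. Its product is a subunit of the complex, as are BBS7 and BBS9. Bbs2 was at 23.5, 16.9 and 20.2 CPM in LSPCT, against 5.92, 10.6 and 8.09 CPM in LSPC. The means of 20.2 ± 3.32 CPM in LSPCT and 8.20 ± 2.34 CPM in LSPC (SD, n = 3 each) differed 2.46-fold (log2 1.30, SE 0.24, edgeR adjusted p = 0.00824). Bbs7 and Bbs9 did not follow Bbs2 past the threshold. Bbs9 averaged 25.1 ± 2.09 CPM in LSPCT and 22.5 ± 2.51 CPM in LSPC (log2 0.16, edgeR adjusted p = 0.441; n = 3 each), and Bbs7 was low, at 0.354 to 0.800 CPM in LSPCT and 0.446 to 0.975 CPM in LSPC. Bbs5, which binds phosphoinositides, had 4.50, 3.20 and 2.70 CPM in LSPCT, against 2.09, 2.33 and 1.63 CPM in LSPC, without overlap (log2 0.78, SE 0.32, edgeR adjusted p = 0.133). Bbs1 (log2 0.33) and Bbs4 (0.22) did not pass; Bbs4 did not overlap between groups, and it shares 194 exon bases with Adpgk on the other strand. The chaperonin-like assembly genes Bbs10 and Bbs12 gave log2 values of 0.20 and 0.06. Arl6, the GTPase of the BBSome, was at 0.900, 1.21 and 3.19 CPM in LSPCT and 0.795, 1.95 and 0.965 CPM in LSPC, a difference of 0.51 with an SE of 0.57.

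Of the 3 kinesin genes, Kif17 alone passed. Kif17, a homodimeric kinesin-2, was at 36.8, 39.1 and 33.5 CPM in LSPCT, against 53.6, 53.9 and 46.0 CPM in LSPC. All LSPCT libraries were lower than all LSPC libraries, and Kif17 fell (log2 -0.49, SE 0.10, edgeR adjusted p = 0.0147). The call was lost without LSPC replicate 1 (edgeR adjusted p = 0.0759), LSPC replicate 2 (0.0627) or LSPCT replicate 3 (0.0503). Kif17 shares 74 exon bases in GENCODE vM21 with Sh2d5 on the same strand. Sh2d5 was at 112, 144 and 116 CPM in LSPCT and 161, 149 and 135 CPM in LSPC (log2 -0.26, SE 0.12, edgeR adjusted p = 0.183), and the part of shared reads in the Kif17 result was not tested. Kif3a and Kif3b, which encode the motor subunits of heterotrimeric kinesin-2, did not pass, with log2 values of -0.10 (SE 0.18) and 0.15 (SE 0.12).

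Among the dynein-2 genes, the light intermediate chain gene Dync2li1 rose. It was at 10.1, 16.2 and 15.8 CPM in LSPCT, against 6.41, 6.53 and 5.46 CPM in LSPC, and LSPCT replicate 1 was the lowest of its group, as for Ift80. The means of 14.0 ± 3.40 CPM in LSPCT and 6.13 ± 0.587 CPM in LSPC (SD, n = 3 each) differed 2.29-fold (log2 1.19, SE 0.22, edgeR adjusted p = 0.00953). The heavy chain gene Dync2h1 averaged 14.5 ± 2.68 CPM in LSPCT and 15.4 ± 0.786 CPM in LSPC (SD, n = 3 each), a difference within the spread of LSPCT. The intermediate chain genes Wdr34 (log2 0.22, SE 0.11) and Wdr60 (0.16, SE 0.32) did not pass. Of the ARL genes, Arl3 was at 10.5, 8.03 and 5.58 CPM in LSPCT and 4.52, 4.87 and 6.09 CPM in LSPC, with overlap (log2 0.63, SE 0.27, edgeR adjusted p = 0.155).

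The calls held unevenly. Ift80, Ift140, Bbs2 and Dync2li1 passed whichever library was left out, with edgeR adjusted p of at most 0.0458, whereas Ift52, Ift57 and Kif17 passed in 3 of the 6 fits with a library left out and Ift122 in none of them. Leaving out any LSPC library left 4 genes of the group that rose in place of 7.

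Subunits of the same complex differed in level as well as in change. Per kilobase of exons (union of exons in GENCODE vM21, which is not the annotation of the counts), Ift20 and Ift52 were the highest of the 36 in LSPC, at 21.1 and 20.8 CPM per kb, followed by Ift57 at 15.4, Wdr34 at 13.5 and Kif17 at 11.2. In LSPCT, Ift52 stood at 27.0 and Ift20 at 21.1 CPM per kb. At the low end in LSPC stood Tulp3 (0.0846), Ift43 (0.116), Bbs7 (0.131), Ift81 (0.162) and Wdr35 (0.190 CPM per kb). Ift80 was at 9.05 CPM per kb in LSPCT and 2.23 in LSPC, and Dync2li1 at 7.50 in LSPCT and 3.28 in LSPC. Within IFT-B, Ift20 was about as high as Ift52 in LSPC and Ift81 far lower, in levels per length.

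Other genes of the cilium were taken from lists by function, 148 genes in all, of which 112 were tested. Of these 14 rose and 4 fell (16.1% called, against 17.2% of all genes tested), and their median log2 fold change was 0.14. Above 0 were 77 of the 112 values (68.8%), against 49.6% of all genes tested. With 1 library left out, 4 to 21 rose and 1 to 7 fell, both highest without LSPCT replicate 1; the 4 came without LSPC replicate 1, and the 1 without any of the LSPC libraries. Among 16 remaining genes of the same transport machinery, 3 rose and none fell, against 8.96% and 8.24% of all genes tested. Their median log2 fold change was 0.49. Bbip1, the small BBSome subunit, was at 24.6, 24.0 and 26.4 CPM in LSPCT, against 16.6, 19.5 and 18.0 CPM in LSPC (log2 0.47, SE 0.12, edgeR adjusted p = 0.0283). Ttc8, the BBS8 subunit, was at 2.70, 2.83 and 3.41 CPM in LSPCT, against 1.74, 1.14 and 1.11 CPM in LSPC (log2 1.16, SE 0.32, edgeR adjusted p = 0.0425). Kif3c, a kinesin-2 gene, rose as well (log2 1.39, SE 0.40, edgeR adjusted p = 0.0479). It was at 3.90, 1.72 and 2.35 CPM in LSPCT, against 0.945, 0.890 and 1.19 CPM in LSPC, with LSPCT replicate 1 the highest.

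**Figure D3:**
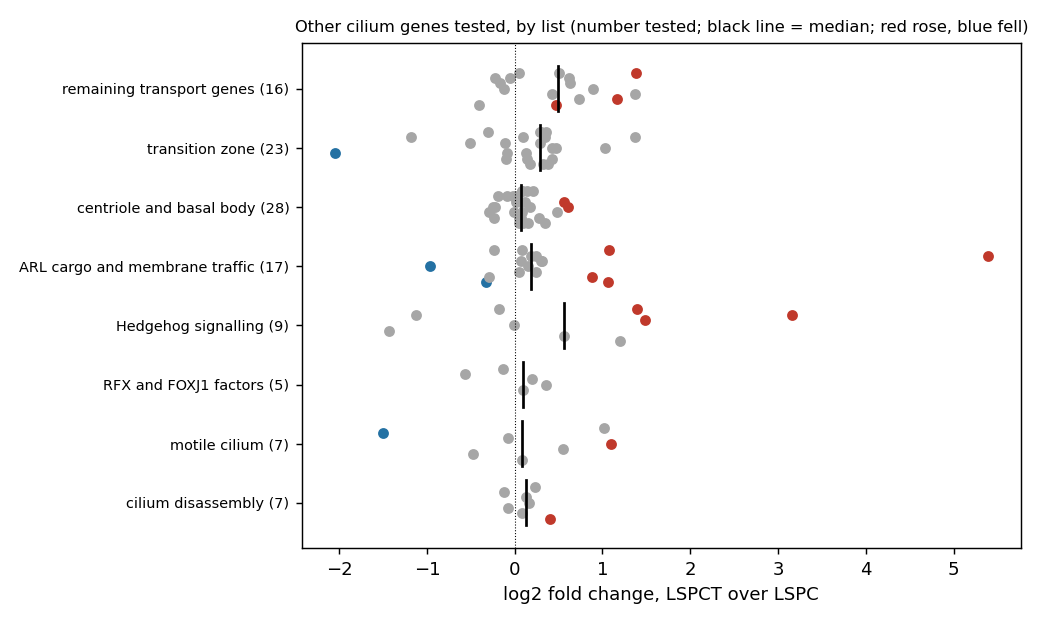
Fitted log2 fold change, LSPCT over LSPC, of the 112 other cilium genes tested, 1 point per gene, by list, with the list median as a black line. Centriole genes sit close to 0 (median 0.08), and the points farthest out are Ehd3 at 5.39, Gas1 at 3.15 and Cc2d2a at -2.05.

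Genes of the gate at the base of the cilium and of the centriole are set here against 17.2% called over all genes tested. Of 23 transition zone genes none rose and Cc2d2a fell (2.50, 0.464 and 0.708 CPM in LSPCT, against 5.52, 3.98 and 5.64 CPM in LSPC; log2 -2.05, SE 0.58, edgeR adjusted p = 0.0448). The median of the 23 was nevertheless 0.29, and 16 of them (69.6%) were above 0, against 49.6% of all genes tested. Of 28 centriole and basal body genes 2 rose, the distal appendage gene Cep89 (log2 0.60, SE 0.11, edgeR adjusted p = 0.00734) and the centriole gene Poc1a (0.56, SE 0.11, edgeR adjusted p = 0.0105), and none fell. Of 7 genes of cilium disassembly, the mitotic kinase gene Nek2 rose (log2 0.40, SE 0.12, edgeR adjusted p = 0.0486).

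Of 17 tested genes that handle ARL cargo and membrane traffic, 4 rose and 2 fell, against 8.96% and 8.24% of all genes tested; the difference in shares was not tested. Ehd3, a membrane-shaping ATPase gene, was at 68.2, 23.0 and 29.8 CPM in LSPCT, against 0.597, 1.27 and 0.965 CPM in LSPC (log2 5.39, SE 0.50, edgeR adjusted p = 0.000348). LSPCT replicate 1 was the highest. Rp2h, the gene of the protein that turns ARL3 off, was at 125, 146 and 165 CPM in LSPCT, against 77.0, 71.5 and 88.4 CPM in LSPC (log2 0.88, SE 0.13, edgeR adjusted p = 0.00314). Unc119b, a carrier of myristoylated cargo that ARL3 unloads, was at 31.1, 24.7 and 24.2 CPM in LSPCT, against 56.8, 49.9 and 49.5 CPM in LSPC, and fell by 0.96 (SE 0.12, edgeR adjusted p = 0.00158). Ehd1 rose too (log2 1.07, SE 0.21, edgeR adjusted p = 0.0105). The other genes of this list that passed, outside the 4 with the smallest p, were Tulp4 (log2 1.07) and Inpp5e, a gene of a phosphoinositide phosphatase of the ciliary membrane (-0.33).

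Hedgehog signalling passes through primary cilia in mammals, and 3 of 9 tested genes of this pathway rose and none fell, against 8.96% and 8.24% of all genes tested. Of these 3, Gas1 entered the test only through its LSPCT libraries. Smo, the signal transducer, was at 11.8, 6.17 and 8.05 CPM in LSPCT, against 2.73, 3.05 and 3.49 CPM in LSPC (log2 1.49, SE 0.29, edgeR adjusted p = 0.0107). Ptch1, the receptor and a target of the pathway, was at 9.35, 15.7 and 21.7 CPM in LSPCT, against 5.77, 7.42 and 4.72 CPM in LSPC (log2 1.39, SE 0.32, edgeR adjusted p = 0.0213). Gas1, a co-receptor also made by fibroblasts, was at 2.1, 0.511 and 0.531 CPM in LSPCT, against 0.0994, 0.0424 and 0.186 CPM in LSPC (log2 3.15, SE 0.82, edgeR adjusted p = 0.0338). Gli1, the other common target gene, was too low to be tested, at 0.0464 to 0.350 CPM in LSPCT and 0.398 to 0.557 CPM in LSPC. The ligand genes Shh, Ihh and Dhh were at most 0.418 CPM in LSPCT and 0.223 CPM in LSPC.

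Of 9 listed factors of the RFX and FOXJ1 list, 5 were tested by edgeR and did not pass in either direction. They were Rfx1 (log2 -0.13), Rfx2 (-0.57), Rfx3 (0.19), Rfx5 (0.36) and Rfx7 (0.09), of which Rfx5 came nearest (edgeR adjusted p = 0.0527). Foxj1, the factor of motile cilia, was at most 0.186 CPM in LSPCT and 0.0371 CPM in LSPC, and Gmnc had no count in any library. Only 7 of 22 motile cilium genes had enough counts to be tested. Of these Rsph1, a radial spoke gene, rose (3.70, 3.57 and 3.89 CPM in LSPCT, against 1.74, 1.74 and 1.75 CPM in LSPC; log2 1.09, SE 0.26, edgeR adjusted p = 0.0238) and Ccdc40, an axonemal ruler gene, fell by 1.5 (SE 0.35, edgeR adjusted p = 0.0220).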

How the data were processed

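RNA was sequenced in 6 libraries, grouped by the sample titles. The deposited files hold whole-number counts per gene symbol, not normalized. The build mm9 and the tools TopHat2 2.1.0, featureCounts, FastQC and DESeq2 are named, without roles, per the submitters' processing notes; annotation, strandedness and multimapping are not given. The authors' counts were filtered with filterByExpr (minimum count 10, leaving 12729 of 24015 genes), scaled with TMM and compared by edgeR 4.0.16 (R 4.3.3) with the quasi-likelihood F test, group as the only term, and p-values adjusted after Benjamini-Hochberg across the genes tested, with a threshold of 0.05. The SE was taken as the size of the log2 value divided by the root of F. The procedure was also run on counts simulated from its own fitted model. No library was set apart there, so that run cannot show how the procedure handles LSPCT replicate 1. Alternatives were other scaling factors, filters and tests (DESeq2 1.42.0, limma 3.58.1 voom), a replicate block, a required fold and each library left out. The genes and lists were chosen with earlier results of these data known. Of the 36 genes, 35 are named, and 1 enters the counts but is not reported here; of each other list up to 4 passing genes with the smallest p are, and further names were chosen after their values were seen. Exon lengths, overlaps (GENCODE vM21) and promoters (RefSeq) are of GRCm38, not the build of the counts.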

Additional observations from a re-analysis of the deposited data

How the results depend on the processing

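The 7 genes that rose and Kif17 kept their calls with RLE, upper quartile and no scaling factors, with no filter, with a stricter filter (3 or more libraries over 1 CPM, which left 32 of the 36 to be tested) and with limma voom; DESeq2 added Ift43. When 1.5-fold had to be exceeded, 1 of the 36 rose and 0 fell, 1 other cilium gene rose and 1 fell, and 647 genes passed in all, against 2189. With upper quartile factors 2 other cilium genes fell, against 4. Leaving out 1 library at a time gave 4 to 6 of the 36 that rose and 0 to 1 that fell, medians of 0.23 to 0.28 against 0.22, 4 to 21 other cilium genes that rose and 1 to 7 that fell, and 1029 to 3249 genes in all; the causes were not tested. Some values changed sign. Ift20 was -0.0048 with no filter, -0.00070 with the replicate block and -0.10 to 0.11 with a library left out. With a library left out the ranges were -0.0028 to 1.02 for Tulp3, -0.12 to 0.26 for Bbs12, -0.16 to 0.35 for Wdr60, -0.029 to 0.47 for Ift74, -0.014 to 0.53 for Bbs10 and -0.22 to 0.99 for Arl6. Changes of sign were not confined to values near 0, as Arl6 stood at 0.51 and Tulp3 at 0.27 with all libraries. The replicate numbers were not taken as pairs: same-numbered libraries had correlated deviations of 0.12, -0.11 and 0.11. With the replicate block 9 other cilium genes rose, against 14, and 1792 genes passed in all; among the 36, Ift122 was lost (edgeR adjusted p = 0.0691) and Ift43 gained (0.0468). The least precise values were those of low genes: Ift43, Ift81, Arl6, Tulp3 and Bbs7 had an SE of 0.72, 0.65, 0.57, 0.53 and 0.53.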
